A study of Homo sapiens with 18 samples.

Results

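The genes described here are interferon-induced genes, chosen by name: IFI27, IFI6, ISG15, IFITM2, IFITM3, IRF7, IRF9, OAS1 and MX1. Of these 9 genes, 7 were matched by symbol in a table of 13358 genes, and OAS1 and MX1 are not analysed here. The values come from RNA sequencing of poly(A) RNA from HUDEP1, a human erythroid progenitor line that was immortalised, in 18 libraries. The study compared cells with and without the N-terminal part of GATA1, a transcription factor needed to form red cells. Clones 1KI9 and 1D5 carried GATA1s, the short form without the N-terminus, and clone FL carried full-length GATA1. Each clone was sampled at day 4 of differentiation and in expansion, with 3 replicate libraries in each of the 6 groups. The day 4 medium, based on IMDM, held 2% FBS, 3% human AB serum, 10 µg/mL insulin, 3 U/mL heparin and 1 mg/mL holo-transferrin. The expansion medium was based on SFEM II and held 1 µM dexamethasone. All groups received stem cell factor (50 ng/mL), erythropoietin (3 U/mL) and doxycycline (1 µg/mL). Full-length GATA1 was represented by 1 clone, so GATA1 form and clone cannot be told apart. Nothing in the labels says that replicates were separate cultures, so the p-values measure only the spread between these libraries, which may be technical.

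Type I interferons bind a cell surface receptor whose kinases, JAK1 and TYK2, activate STAT proteins. These join IRF9 in the complex ISGF3, which binds the interferon-stimulated response element in target promoters. IRF7 is itself interferon-induced and drives transcription of interferon genes. The other members are effectors of antiviral defence, and interferon exposure is known to affect red cell production, as in the anaemia of chronic inflammation.

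The promoters that hold the core of this response element are shown first, because the element is the sequence through which ISGF3 acts on the effector genes. Windows from 250 bases before to 50 bases after the annotated start were taken from RefSeq (GRCh38.p14). They were searched on both strands for the core, GAAA followed by any 2 bases and a further GAAA, and matches are in capitals (a match on the opposite strand starts and ends with TTTC). The windows lie at chr14:94110486-94110785 on the plus strand for IFI27 (the first of 2 windows for this gene), chr1:27672143-27672442 on the minus strand for IFI6, chr1:1013247-1013546 on the plus strand for ISG15 and chr11:320811-321110 on the minus strand for IFITM3.
IFI27 promoter: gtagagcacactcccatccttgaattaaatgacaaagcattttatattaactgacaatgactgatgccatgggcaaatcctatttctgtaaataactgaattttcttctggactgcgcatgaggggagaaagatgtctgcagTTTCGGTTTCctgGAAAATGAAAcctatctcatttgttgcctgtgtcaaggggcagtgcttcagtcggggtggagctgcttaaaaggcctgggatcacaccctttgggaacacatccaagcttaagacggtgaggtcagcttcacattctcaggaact
IFI6 promoter: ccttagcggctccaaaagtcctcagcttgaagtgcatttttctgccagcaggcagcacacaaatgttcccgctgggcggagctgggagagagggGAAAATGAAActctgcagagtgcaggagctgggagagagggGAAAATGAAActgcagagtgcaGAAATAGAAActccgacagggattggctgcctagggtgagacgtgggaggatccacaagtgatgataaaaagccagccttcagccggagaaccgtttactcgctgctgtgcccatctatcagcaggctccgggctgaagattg
ISG15 promoter: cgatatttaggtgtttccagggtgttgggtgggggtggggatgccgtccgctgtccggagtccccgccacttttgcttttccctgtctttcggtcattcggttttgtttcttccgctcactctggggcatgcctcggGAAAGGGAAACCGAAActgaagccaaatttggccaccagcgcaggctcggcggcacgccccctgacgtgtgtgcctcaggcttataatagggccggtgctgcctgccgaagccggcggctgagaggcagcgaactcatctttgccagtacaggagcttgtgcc
IFITM3 promoter: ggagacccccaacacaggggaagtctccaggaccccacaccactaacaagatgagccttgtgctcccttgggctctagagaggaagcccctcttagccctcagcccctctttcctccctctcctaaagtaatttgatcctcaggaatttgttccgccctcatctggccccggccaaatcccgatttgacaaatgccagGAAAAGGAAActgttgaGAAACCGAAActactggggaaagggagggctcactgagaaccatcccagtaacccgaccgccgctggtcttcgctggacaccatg

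A window was found for 5 of the 7 measured genes, and 4 of them held the core, against 1255 of 35116 windows in the RefSeq table (3.57%). In IFI27 the matches began 108 and 95 bases upstream of the start. IFI6 had 3 matches, at 156, 115 and 93 bases upstream. The ISG15 pair, at 113 and 107 bases upstream, overlapped, and the IFITM3 pair lay at 52 and 35 bases upstream. The IRF9 window held no match. The same windows were searched for GATA motifs (GATA with A or T before it and A or G after it, on either strand), present in 25.0% of all windows. IFI6 and IRF9 held 2 each, IFI27 held 1, and ISG15 and IFITM3 held none, and no GATA motif overlapped a response element core. A match is a run of letters and does not show binding.

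**Figure D1:**
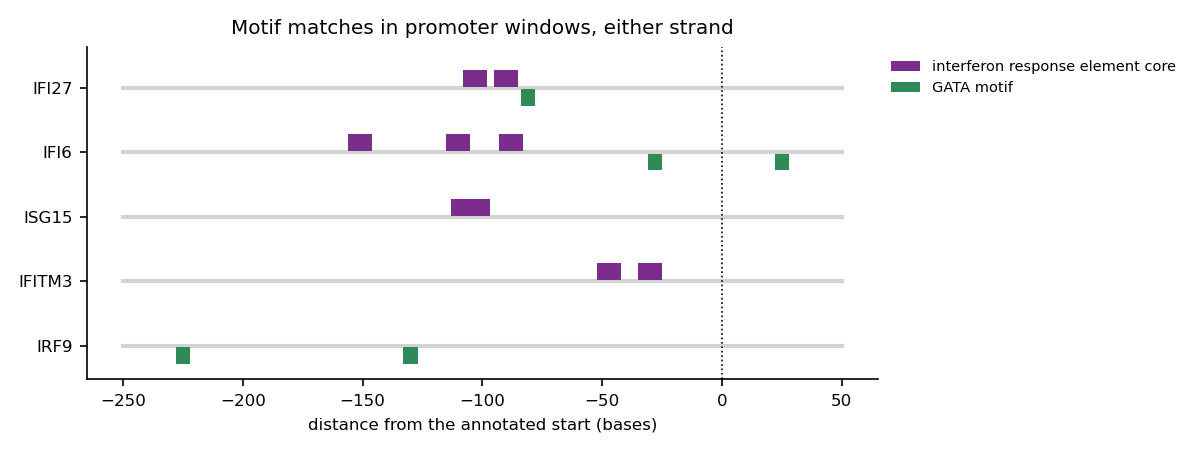
Positions of motif matches in the RefSeq promoter windows of 5 measured genes, against distance from the annotated start in bases. The response element core is drawn above the line and GATA motifs below it. The 4 genes with a core carry 2 or 3 matches each, all upstream of the start.

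Expansion values were deposited as TPM, a length-corrected share of transcripts. Day 4 values were TPM-like but had been rescaled, by a method that the sources here do not give. They summed to between 814583 and 1081251 per library, and the expansion values to between 943734 and 950736. The day 4 sums did not overlap between clones: 814583 to 857123 in 1KI9, 874292 to 945379 in 1D5 and 1045885 to 1081251 in FL. Globin genes made up 12.4% to 13.3%, 19.3% to 20.6% and 38.2% to 39.4% of these sums. At day 4, clone and rescaling therefore cannot be told apart, and the part of either sum or globin share in the differences was not tested. Depth per library is unknown. Differences below are log2 differences of log2(value + 1) with the model's standard error, which understate changes of low genes. Adjusted p-values are from limma, fitted to all 18 libraries and adjusted by Benjamini-Hochberg over all genes tested, with a threshold of 0.05. A gene counts as changed in both clones when 1KI9 and 1D5 each pass against FL in the same direction, and both comparisons use the same FL libraries. GATA1 itself was listed at 901 to 1102 in the GATA1s libraries and at 221 to 236 in FL at day 4. In expansion it was at 614 to 680 in the GATA1s libraries and at 143 to 168 in FL. For the labelled erythroid identity, all 10 erythroid markers were listed above 0 in every group. Their summed level at day 4 ran from 61245 to 68609 in 1KI9, from 101428 to 117192 in 1D5 and from 199517 to 207054 in FL. At day 4, 9 of 10 were lower in both GATA1s clones and GATA1 was higher. Of all genes tested, 14.3% were lower and 51.2% higher in both clones. In expansion 5 of the 10 were lower and 1 higher, against 8.98% and 17.5% of all genes.

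At day 4 the members did not move in 1 direction. IFI6, IFITM2 and IFITM3 exceeded FL in both GATA1s clones, and IFI27, IRF7 and IRF9 were lower in both. ISG15 was higher in 1D5 only among the tests against FL. Changes were common at this time: 65.5% of the 11083 genes tested passed in both clones, 51.2% as higher and 14.3% as lower, so 6 of 7 members is not far from the background. Singly, 1KI9 differed from FL in 3 higher and 3 lower members (76.4% of all genes, 58.9% higher and 17.5% lower). 1D5 differed in 4 higher and 3 lower (71.1%, with 54.8% higher and 16.3% lower). The median member difference was 0.85 (mean of the clones minus FL), against 0.29 over all genes. This median is the IFI6 value, and with members on both sides of 0 it is not read as a shared shift. With median-of-ratios scaling it was 0.59. In bulk RNA, fewer cells of a type and less RNA per cell cannot be told apart.

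**Figure D2:**
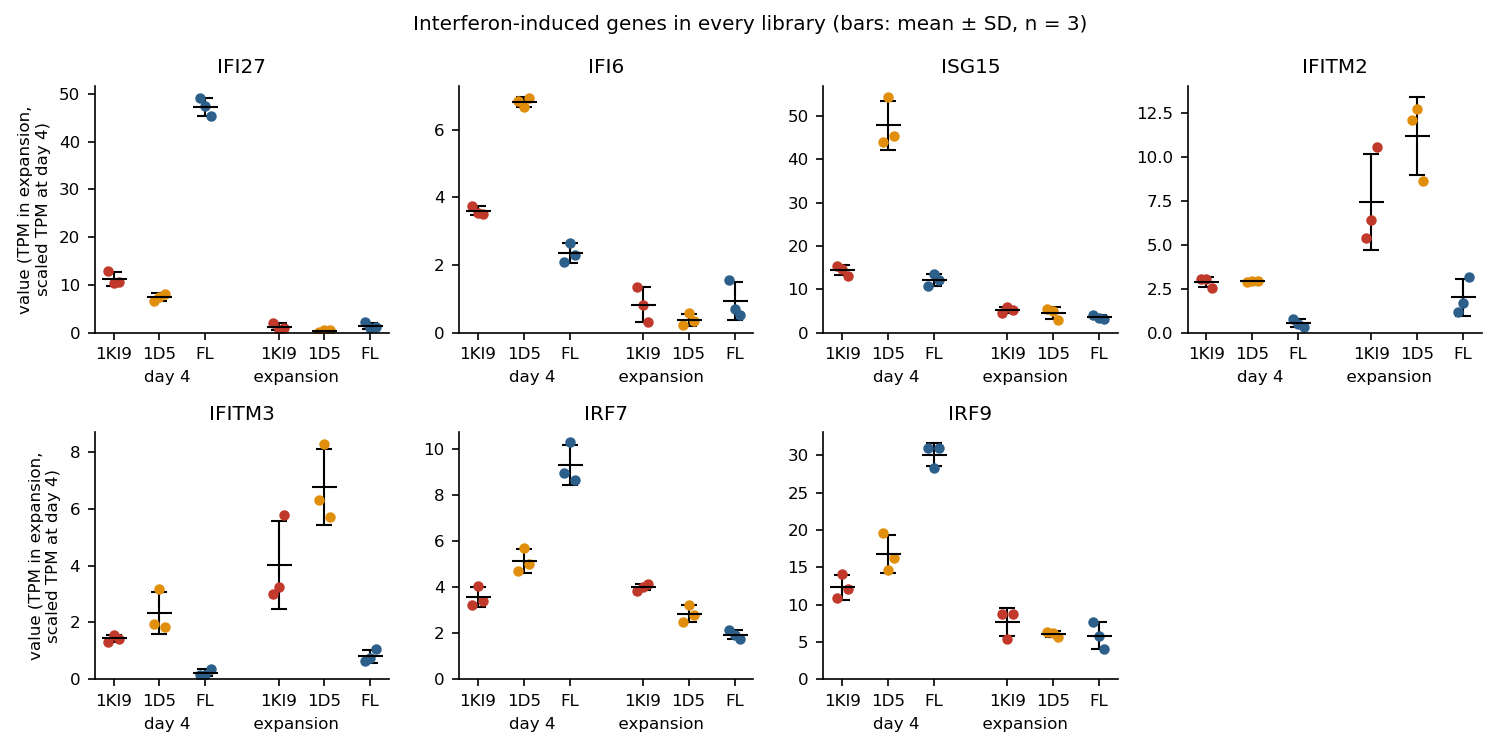
Values of the 7 measured genes in each library (TPM in expansion, rescaled TPM at day 4), by clone and condition. Points are libraries and bars are mean ± SD of 3. IFI27, IRF7 and IRF9 are highest in FL at day 4, ISG15 and IFI6 in 1D5 at day 4, and IFITM2 and IFITM3 in the GATA1s clones in expansion.

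IRF9 (chr14:24161053-24166565, plus strand, GENCODE v29 on GRCh38) is the DNA-binding part of ISGF3. At day 4 it was at 10.84, 14.10 and 12.03 in the 1KI9 libraries, 19.57, 14.60 and 16.23 in the 1D5 libraries, against 31.02, 28.30 and 31.05 in the FL libraries. Every GATA1s library lay below every FL library. The mean difference was -1.02 ± 0.15 (adjusted p = 5.59e-06 with limma), with -1.23 ± 0.17 in 1KI9 and -0.81 ± 0.17 in 1D5. In expansion IRF9 was at 8.69, 5.44 and 8.78 in the 1KI9 libraries, 6.36, 6.18 and 5.65 in the 1D5 libraries, against 7.63, 5.83 and 4.08 in the FL libraries. These ranges overlapped and the difference of 0.21 ± 0.15 did not pass (adjusted p = 0.247 with limma). It passed without FL replicate 1 in expansion (0.39, adjusted p = 0.0382 with limma). A protein-coding model, AL136295.5, overlaps IRF9 on the same strand, so its reads are uncertain.

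IRF7 (chr11:612553-615999, minus strand) was called against FL in both conditions and in opposite directions. At day 4 it was at 3.23, 4.06 and 3.38 in the 1KI9 libraries, 4.69, 5.69 and 4.99 in the 1D5 libraries, against 8.96, 10.28 and 8.64 in the FL libraries. In expansion it was at 3.84, 4.02 and 4.12 in the 1KI9 libraries, 2.48, 3.22 and 2.79 in the 1D5 libraries, against 2.12, 1.91 and 1.74 in the FL libraries. The 3 clones did not overlap in either condition, and their order was reversed: 1KI9 was the lowest at day 4 and the highest in expansion. The mean difference from FL was -0.96 ± 0.08 at day 4 (adjusted p = 8.77e-09 with limma) and 0.58 ± 0.08 in expansion (adjusted p = 1.48e-05 with limma). The test of the change in difference gave -1.54 ± 0.12 (adjusted p = 8.69e-09 with limma). Within clones, day 4 minus expansion was -0.14 ± 0.10 in 1KI9, 0.68 ± 0.10 in 1D5 and 1.81 ± 0.10 in FL. These differences within a clone cross separately scaled parts of the table and were given no test.

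IFI27 (chr14:94104836-94116698, plus strand) encodes a small membrane protein and was the member most lowered. At day 4 it was at 12.98, 10.42 and 10.51 in the 1KI9 libraries, 6.61, 7.48 and 8.18 in the 1D5 libraries, against 49.17, 47.48 and 45.41 in the FL libraries. The mean difference was -2.25 ± 0.17 (adjusted p = 8.72e-10 with limma), a level 0.21 times that of FL on this scale. The lowest FL library was more than 3 times the highest GATA1s library. In expansion the gene was near the floor of the table, at 2.02, 0.62 and 1.01 in the 1KI9 libraries, 0.22, 0.55 and 0.47 in the 1D5 libraries, against 2.15, 0.89 and 1.10 in the FL libraries. The 1D5 libraries all lay below FL (-0.72 ± 0.19, adjusted p = 0.00796 with limma), and 1KI9 overlapped FL (-0.12 ± 0.19, adjusted p = 0.627 with limma). FL replicate 1 in expansion, which set the top of that range, also had the highest globin share of the expansion libraries (10.6%, against 4.02% to 6.83% in the others). Day 4 minus expansion was 2.52 ± 0.19 in 1KI9, 2.58 ± 0.19 in 1D5 and 4.38 ± 0.19 in FL. The test of the change in the GATA1s difference gave -1.83 ± 0.24 (adjusted p = 3e-06 with limma).

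IFI6 (chr1:27666061-27672218, minus strand) encodes a small membrane protein that restricts viral replication. At day 4 it was at 3.75, 3.54 and 3.51 in the 1KI9 libraries, 6.83, 6.67 and 6.94 in the 1D5 libraries, against 2.09, 2.66 and 2.28 in the FL libraries. The clones did not overlap, with 1D5 highest and FL lowest. The differences from FL were 0.46 ± 0.18 in 1KI9 (adjusted p = 0.0288 with limma) and 1.23 ± 0.18 in 1D5 (adjusted p = 1.09e-05 with limma). The 1KI9 difference did not pass after median-of-ratios scaling (0.18, adjusted p = 0.378 with limma) or at a pseudocount of 0.5 (0.53, 0.0639) or 0.1 (0.60, 0.158). Nor did it pass without any of several single libraries. Those were 1KI9 replicate 1, 2 or 3 and FL replicate 1 or 3 at day 4, with adjusted p between 0.0513 and 0.0893 by limma. In expansion IFI6 was at 1.34, 0.82 and 0.30 in the 1KI9 libraries, 0.22, 0.57 and 0.34 in the 1D5 libraries, against 1.56, 0.69 and 0.51 in the FL libraries, with all ranges overlapping. An antisense gene, AL445490.1, overlaps IFI6, and the sources used here do not say whether counting used strand.

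ISG15 (chr1:1001138-1014540, plus strand) encodes a ubiquitin-like protein that is attached to other proteins. At day 4 it was at 15.26, 14.73 and 13.04 in the 1KI9 libraries, 43.90, 54.35 and 45.45 in the 1D5 libraries, against 10.71, 13.59 and 12.16 in the FL libraries. Every 1D5 library stood far above the others, and 1KI9 overlapped FL. The difference from FL was 1.89 ± 0.15 in 1D5 (adjusted p = 5.05e-09 with limma) and 0.23 ± 0.15 in 1KI9 (adjusted p = 0.188 with limma). The 1KI9 value depended on the scaling, from -0.14 with median-of-ratios factors to 0.54 with equal totals, where it passed. It also passed when only the compared libraries were fitted (adjusted p = 0.0379 with limma). In expansion ISG15 was at 4.44, 5.80 and 5.20 in the 1KI9 libraries, 5.52, 4.91 and 2.89 in the 1D5 libraries, against 4.08, 3.47 and 3.09 in the FL libraries. There the 1KI9 libraries all lay above FL (0.43 ± 0.15, adjusted p = 0.0211 with limma) and 1D5 overlapped it. Without 1D5 replicate 3 in expansion, 1D5 also passed (0.45, adjusted p = 0.0112 with limma). The 1KI9 call was lost without 1KI9 replicate 2 or 3 or FL replicate 3 in expansion (adjusted p 0.0511 to 0.0851 with limma) and with median-of-ratios scaling (0.142). Day 4 minus expansion was 1.32 ± 0.15 in 1KI9, 3.20 ± 0.15 in 1D5 and 1.53 ± 0.15 in FL. A pseudogene, AL645608.3, and an antisense gene, AL645608.1, overlap ISG15.

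IFITM2 (chr11:307631-315272, plus strand) and IFITM3 (chr11:319669-327537, minus strand) are neighbours that encode closely related proteins blocking virus entry at membranes. At day 4 IFITM2 was at 3.06, 3.02 and 2.53 in the 1KI9 libraries, 2.86, 2.93 and 2.94 in the 1D5 libraries, against 0.79, 0.51 and 0.33 in the FL libraries. IFITM3 was at 1.32, 1.57 and 1.41 in the 1KI9 libraries, 1.93, 3.17 and 1.85 in the 1D5 libraries, against 0.16, 0.15 and 0.36 in the FL libraries. No FL library reached a value of 1 for either gene at day 4, so both entered the test through the other groups. The mean differences were 1.34 ± 0.19 for IFITM2 (adjusted p = 3.47e-06 with limma) and 1.21 ± 0.16 for IFITM3 (adjusted p = 1.47e-06 with limma). Day 4 minus expansion was below 0 in every clone for both genes, at -1.08, -1.62 and -0.92 in 1KI9, 1D5 and FL for IFITM2 and between -1.24 (1D5) and -0.56 (FL) for IFITM3, with no test. IFITM2 in expansion was at 5.36, 6.41 and 10.54 in the 1KI9 libraries, 12.10, 12.73 and 8.64 in the 1D5 libraries, against 1.18, 1.67 and 3.18 in the FL libraries. IFITM3 was at 3.01, 3.26 and 5.79 in the 1KI9 libraries, 6.31, 8.28 and 5.70 in the 1D5 libraries, against 0.63, 0.73 and 1.06 in the FL libraries. Every GATA1s library exceeded every FL library for both genes. The mean difference was 1.77 for both, ± 0.19 for IFITM2 (adjusted p = 3.21e-07 with limma) and ± 0.16 for IFITM3 (adjusted p = 3.19e-08 with limma). RSEM divides reads among near-identical transcripts, so the split between IFITM2, IFITM3 and their neighbour IFITM1 is uncertain. IFITM1 also overlaps IFITM2 on the same strand, and an antisense gene, AC136475.2, overlaps IFITM2. IFITM3 is overlapped by 2 non-coding genes on its own strand, AC136475.7 and AC136475.8, and by others on the opposite strand.

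In expansion 3 members, IFITM2, IFITM3 and IRF7, were higher in both GATA1s clones and none was lower. The background there was 26.4% of 11042 genes, 17.5% higher and 8.98% lower. Singly, 1KI9 had 4 members higher and none lower (59.6% of all genes called, 41% higher and 18.5% lower). 1D5 had 3 higher and 1 lower (31.1%, with 18.7% higher and 12.4% lower). The median member difference was 0.33, against 0.06 over all genes. This median is the ISG15 value, and with median-of-ratios scaling it was 0.23. Between the conditions, the difference from FL changed for 6 of the 7 members, against 65.1% of 11015 genes, 45.4% higher and 19.7% lower. It was larger at day 4 for IFI6 (1.11 ± 0.22) and ISG15 (0.73 ± 0.19) and lower at day 4 for IFI27, IRF7, IRF9 (-1.23 ± 0.21) and IFITM3 (-0.56 ± 0.22). These are means of the clones, and singly the IFI6, ISG15 and IFITM3 changes passed in 1D5 only. The mean IFITM3 value had adjusted p = 0.0338 with limma and did not pass at a pseudocount of 0.5 or 0.1 or under any other scaling. It also missed the threshold without 1KI9 replicate 1, 1D5 replicate 1 or 3 or FL replicate 3 at day 4, and without 1D5 replicate 2 or FL replicate 1 or 2 in expansion (adjusted p 0.0501 to 0.0936 with limma).

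**Figure D3:**
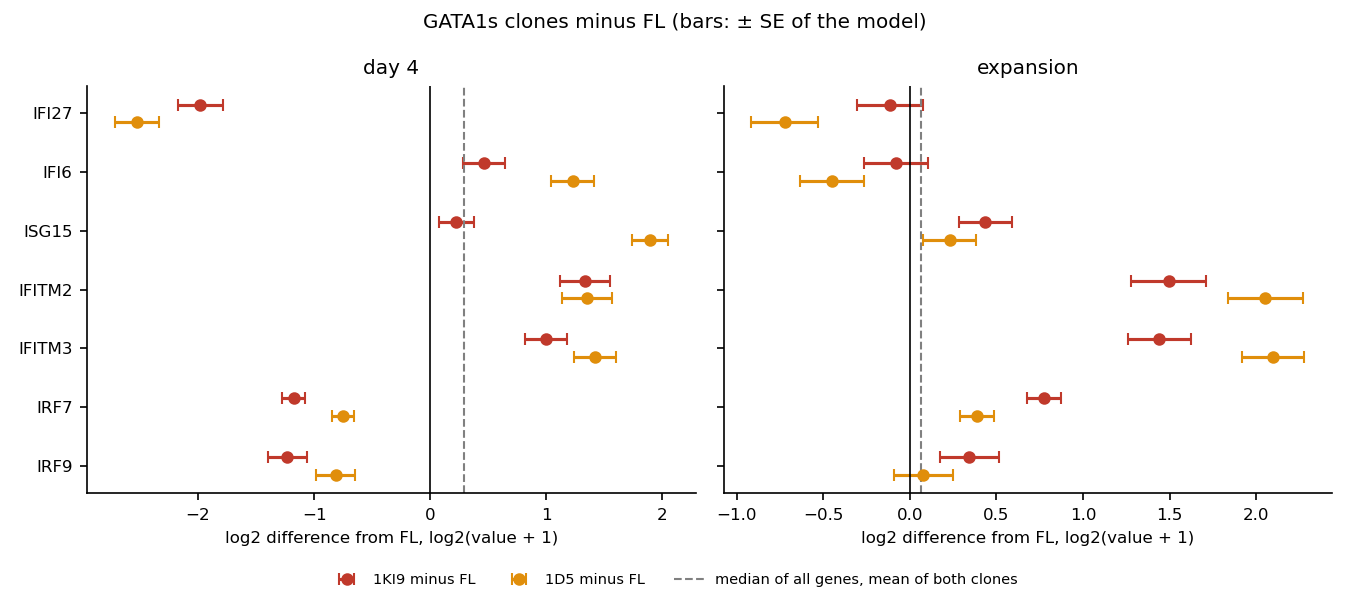
Log2 difference from FL for each GATA1s clone (± SE of the model), at day 4 on the left and in expansion on the right. The dashed line is the median of all genes, 0.29 at day 4 and 0.06 in expansion. IRF7 lies left of 0 at day 4 and right of 0 in expansion in both clones.

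The GATA1s clones gave different levels for several members. At day 4, 1KI9 was below 1D5 for ISG15 (-1.67 ± 0.15, adjusted p = 3.94e-07 with limma), IFI6 (-0.76 ± 0.18, 0.00688) and IRF7 (-0.43 ± 0.10, 0.00465). The IFI6 call was lost at a pseudocount of 0.1 (-0.90, adjusted p = 0.117 with limma). No member was called higher in 1KI9, and IFI27 was at 0.54 ± 0.19 (adjusted p = 0.0555 with limma). The background was 19.2% of genes called, 12.5% higher and 6.69% lower in 1KI9. In expansion 40.6% of genes were called, 33.4% higher and 7.16% lower in 1KI9, and the members divided. IFI27 (0.61 ± 0.19, adjusted p = 0.0175 with limma) and IRF7 (0.39 ± 0.10, 0.00394) were higher in 1KI9. The IRF7 call was lost with median-of-ratios scaling (0.24, adjusted p = 0.0686 with limma). IFITM3 (-0.66 ± 0.18, 0.00748) and IFITM2 (-0.56 ± 0.22, 0.047) were lower, and the IFITM2 call was lost under most alternatives, among them leaving out 1KI9 replicate 1 (-0.38, adjusted p = 0.213 with limma). The IFI27 call was lost without 1KI9 replicate 1 (0.36, adjusted p = 0.121) or 1D5 replicate 1 (0.51, adjusted p = 0.0735) in expansion, both by limma.

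A list of 47 other interferon-induced genes was taken alongside the members, of which 42 were matched and 27 tested. At day 4, 1KI9 was below 1D5 for 11 of these 27 and above it for 4, where 6.69% of all genes were lower and 12.5% higher. The median was -0.22, against 0.05 over all genes. The 3 lowest were IFIT2, IFIT3 and OASL, antiviral genes that act on viral RNA or on the sensing of it. IFIT2 was at 1.66, 1.56 and 1.30 in the 1KI9 libraries, 8.61, 8.55 and 8.54 in the 1D5 libraries, with FL at 0.30, 0.22 and 0.18. OASL, an OAS-like protein, was at 1.91, 1.51 and 1.51 in the 1KI9 libraries, 8.11, 8.60 and 8.37 in the 1D5 libraries, with FL at 0.39, 0.40 and 0.21. IFIT3 was at 1.34, 1.21 and 1.06 in the 1KI9 libraries, 5.90, 6.50 and 6.65 in the 1D5 libraries, with FL at 0.36, 0.40 and 0.32. In all 3 genes the order was 1D5, 1KI9, FL with no overlap. They were picked as the lowest in 1KI9 minus 1D5, so the gap between those clones follows from the choice. The share of all genes without overlap was not computed. The clone differences were -1.93 ± 0.08 for IFIT2, -1.83 ± 0.08 for OASL and -1.74 ± 0.08 for IFIT3 (adjusted p 1.55e-11 to 3.29e-11 with limma). RSAD2, which encodes the antiviral enzyme viperin and was named after its values were seen, followed another order. It was at 6.43, 6.05 and 5.90 in the 1KI9 libraries, 19.59, 22.70 and 22.84 in the 1D5 libraries, with FL at 17.28, 16.47 and 14.95. In expansion IFIT2, IFIT3 and OASL were at 0.38 or below in every library. With FL below 1 at day 4 too, they entered the test through the GATA1s libraries at day 4. With no filter on low values, 18 of the 42 were lower in 1KI9 and 5 higher, against 7.33% of all genes lower. The share of all genes higher in that setting is not given here, so the 5 are not read against a background. Of the 33 genes on the list with a promoter window, 18 held the response element core. It was held by 7 of the 9 windows among the genes lower in 1KI9 and by 4 of 12 among the other tested genes, counts that were given no test.

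**Figure D4:**
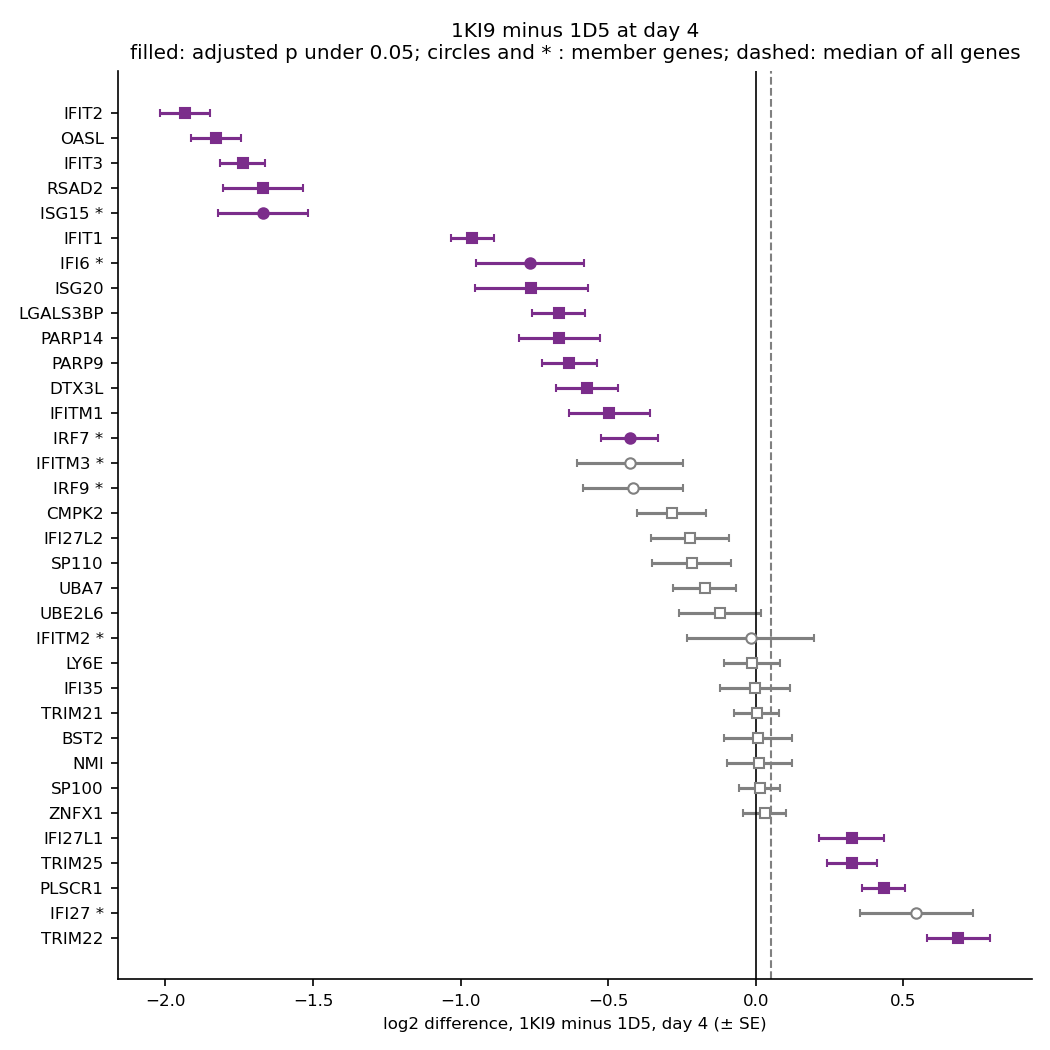
Log2 difference of 1KI9 minus 1D5 at day 4 (± SE of the model) for the 7 members (circles, starred) and the 27 other tested interferon-induced genes (squares). Filled symbols passed the adjusted p threshold of 0.05, and the dashed line is the median of all genes. IFIT2, OASL, IFIT3, RSAD2 and ISG15 lie at -1.67 or below.

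Against FL, the same list was mixed. At day 4, 11 of 27 were higher in both GATA1s clones and 8 lower, where 51.2% of all genes were higher and 14.3% lower. The balance depended on the scaling, with 6 higher and 12 lower after median-of-ratios scaling. UBE2L6, the conjugating enzyme that transfers ISG15 to its targets, was the most lowered. It was at 2.55, 2.79 and 2.47 in the 1KI9 libraries, 2.63, 3.38 and 2.78 in the 1D5 libraries, against 31.68, 32.60 and 33.72 in the FL libraries (mean difference -3.16 ± 0.12, adjusted p = 1.12e-13 with limma). UBA7, the enzyme that activates ISG15, was also lower (-0.57 ± 0.09, adjusted p = 2.29e-05 with limma). It was named for its role after its value was seen. IFIT2 (1.99 ± 0.07), OASL (1.90 ± 0.07) and IFIT3 (1.56 ± 0.07) were higher in both clones. None of these reached a value of 1 in any FL or expansion library, so they entered the test through the GATA1s libraries at day 4. In expansion, 7 of the 27 were higher and 5 lower, against 17.5% and 8.98% of all genes. These included the antiviral ubiquitin ligase TRIM22 (1.37 ± 0.09) and IFITM1 (0.95 ± 0.12), which rose, and the ubiquitin ligase DTX3L (-0.78 ± 0.09), which fell.

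Upstream of the members, 4 of 5 tested receptor genes were higher in both GATA1s clones at day 4, led by the interferon gamma receptor chains IFNGR1 (1.22 ± 0.07) and IFNGR2 (1.12 ± 0.09). The share of all genes called higher was 51.2%, so the receptor count is not read as particular to them. With median-of-ratios scaling 3 of 5 were called. In expansion IFNGR1 (0.89 ± 0.07) was higher and IFNAR2, a chain of the type I receptor, was lower (-0.48 ± 0.12). Among the JAK and STAT genes, STAT3 (1.39 ± 0.06) and STAT2 (0.42 ± 0.09) were higher at day 4 and JAK2, the kinase of the erythropoietin receptor, was lower (-0.83 ± 0.09). The STAT2 difference was 0.08 with median-of-ratios scaling and did not pass there. STAT2 is a partner of IRF9 in ISGF3. In expansion JAK1 (0.89 ± 0.09) and STAT3 (0.50 ± 0.06) were higher in both clones.

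Among the other interferon regulatory factors, IRF1, an activator of interferon-response genes, was lower in both clones at day 4 (-1.54 ± 0.10) and in expansion (-0.47 ± 0.10). At day 4 it was at 5.78, 5.49 and 5.03 in the 1KI9 libraries, 8.64, 9.28 and 8.0 in the 1D5 libraries, against 22.11, 22.12 and 21.51 in the FL libraries. IRF2 was lower at day 4 (-0.29 ± 0.10) and did not pass with equal totals. Among 6 negative regulators, 3 were higher at day 4 and 2 in expansion, against 51.2% and 17.5% of all genes. The phosphatase PTPN6 was at 10.79, 10.29 and 9.25 in the 1KI9 libraries, 1.54, 1.5 and 1.12 in the 1D5 libraries, against 0.30, 0.33 and 0.42 in the FL libraries at day 4. SOCS1, which inhibits JAK kinases, was higher by 0.99 ± 0.11 at day 4 and by 1.96 ± 0.11 in expansion. The third, PTPN2, reversed with median-of-ratios scaling.

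Of 14 tested nucleic acid sensors and adaptors, 10 were higher and 1 lower in both clones at day 4, and 4 were higher in expansion. Of all genes, 51.2% were higher and 14.3% lower at day 4 and 17.5% higher in expansion. With median-of-ratios scaling the day 4 counts were 4 higher and 3 lower. TMEM173, which encodes the adaptor STING, was at 87.11, 85.07 and 85.74 in the 1KI9 libraries, 60.12, 60.84 and 63.19 in the 1D5 libraries, against 8.73, 8.51 and 8.45 in the FL libraries at day 4. In expansion it was at 68.17, 74.04 and 75.62 in the 1KI9 libraries, 44.15, 42.50 and 27.93 in the 1D5 libraries, against 1.36, 4.03 and 3.77 in the FL libraries. The mean difference was 2.95 ± 0.17 at day 4 and 3.79 ± 0.17 in expansion. The DNA sensor IFI16 was also higher in both conditions, by 1.30 ± 0.10 at day 4 and by 1.79 ± 0.10 in expansion. Of 5 antigen processing genes that interferon gamma induces, 4 were higher at day 4, led by the lysosomal reductase IFI30 (0.98 ± 0.12), where 51.2% of all genes were higher, and 1 passed with median-of-ratios scaling. In expansion 2 were lower, against 8.98% of all genes, the peptide transporter TAP2 (-0.93 ± 0.29) and the tRNA synthetase WARS (-0.34 ± 0.06). Of 13 interferon ligand genes listed, 1 was matched, IFNL3, and it was listed at 0 throughout day 4 and at 0.06 to 0.27 in expansion. The other 12 are not analysed here.

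**Figure D5:**
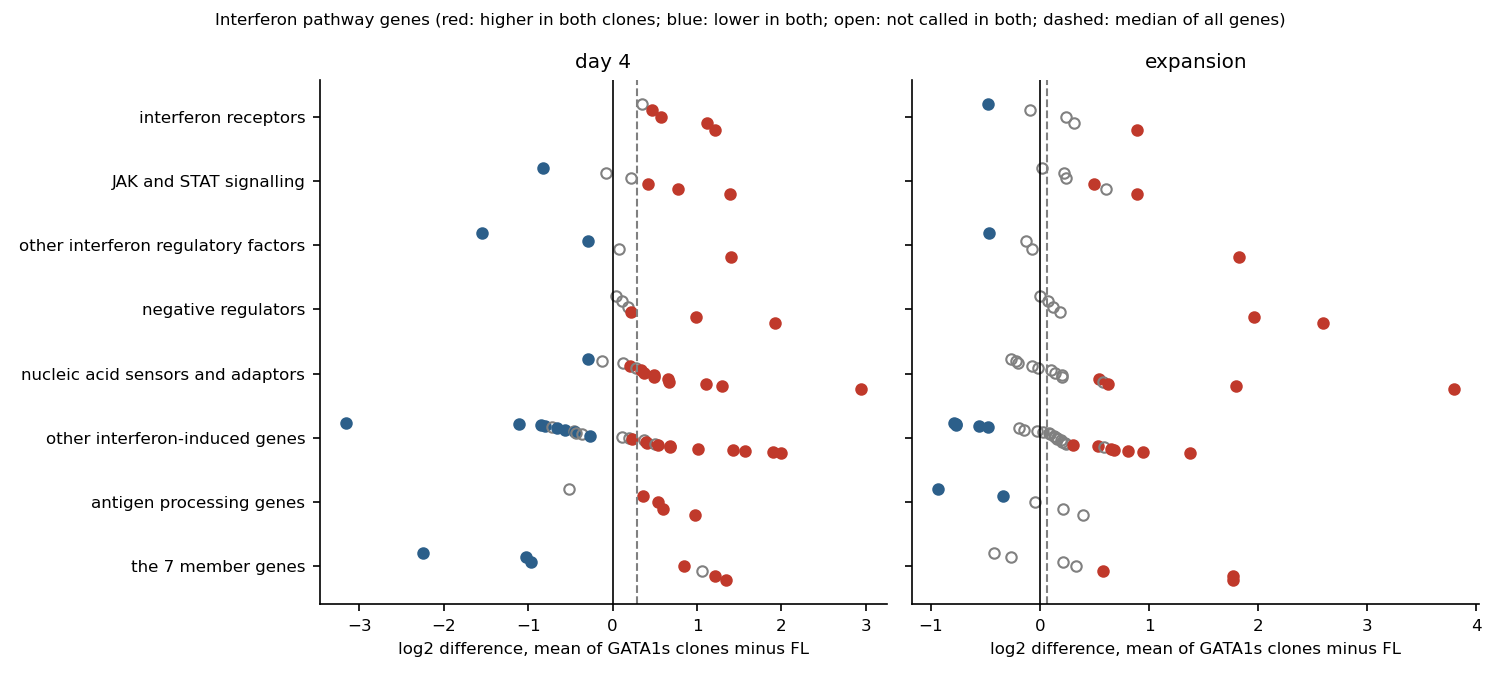
Log2 difference of the mean of the GATA1s clones minus FL for each tested gene of the interferon pathway lists, at day 4 on the left and in expansion on the right. Red points were higher in both clones, blue lower in both, and open points were not called in both. TMEM173 is the point farthest right in both panels, and UBE2L6 the farthest left at day 4.

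Markers of other blood cells also moved with the clones. Of 11 monocyte and neutrophil markers 7 were matched, with summed levels at day 4 of 407 to 430 in 1KI9, 334 to 356 in 1D5 and 44.4 to 48.3 in FL. In expansion the sums were 222 to 265 in 1KI9, 59.1 to 72.5 in 1D5 and 14.7 to 51.7 in FL. CD68 made up most of the day 4 sums, and 4 of 5 tested markers were higher in both clones in both conditions, against 51.2% of all genes at day 4 and 17.5% in expansion. The defining receptor CSF1R was at 0.04 to 0.26 in the GATA1s libraries at day 4 and at 0 in all FL libraries, where TYROBP was also at 0 at day 4 and ELANE was at 0 in expansion. Of 10 lymphocyte and plasmacytoid dendritic cell markers 3 were matched, CD3D and CD79A at 0.57 or below in every library, and TCF4 fell (-1.45 ± 0.09 at day 4). Their sums, almost all TCF4, were 19.1 to 22.3 in 1KI9, 26.5 to 36.2 in 1D5 and 68.2 to 72.3 in FL at day 4, and 14.2 to 26.03 over all expansion libraries. Of 9 genes listed as stromal and endothelial markers 6 were matched, with day 4 sums of 166 to 172 in 1KI9, 131 to 133 in 1D5 and 67.9 to 75.5 in FL. These sums were mostly EPCAM, which is not a stromal or endothelial gene, so they are not read as a level of those cells. In expansion 4 of the 6 were listed at 0 in every library. The sums there were 178 to 190.5 in 1KI9, 148.5 to 186 in 1D5 and 101 to 138 in FL. The part of these cell types and of the erythroid markers in the member differences was not tested.

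The genes whose pattern was most like each member were found by Pearson's r of log2(value + 1) over the 18 libraries, centred within each condition, among 11014 other genes. The libraries form 6 groups of 3, so r describes how groups differ. IFI27 was most like STRADB (0.961) and UBE2L6 (0.953). IFI6 had the weakest matches, TOR3A (0.865) and TRAF1 (0.847). ISG15 was nearest to HCN2 (0.956) and ITLN1 (0.950). IFITM2 was nearest to IFITM3 (0.956) and ACPP (0.955), and IFITM3 to TNFAIP2 (0.963) and ACPP (0.958). IRF7 was nearest to FKBP8 (0.967) and CDC34 (0.963), and IRF9 to ATG13 (0.951) and CLK1 (0.929).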

How the data were processed

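RNA from 18 libraries of HUDEP1 clones was measured by poly(A) RNA-seq. The submitters' processing notes name STAR 2.7, RSEM 1.31 and Trim Galore 0.60, with build hg38 (GRCh38.p12). The authors deposited TPM for expansion. The day 4 columns of the deposited table were treated as a TPM-like signal, because their sums differ and exceed what TPM allows in some libraries. The design had assumed TPM throughout, and the same log-scale test was kept. Neither unit keeps read depth, so no counting intervals were computed.

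Gene positions came from GENCODE release 29, which also named 312 rows that had no symbol and were listed at 0 throughout day 4. Genes that reached a value of 1 in 3 or more libraries were analysed as log2(value + 1) with limma 3.58.1 (R 4.3.3), with 1 mean per group, moderated variances with a trend and two-sided tests. Genes listed at 0 in every library of a condition were left out of comparisons using it. All 7 measured members passed the filter. The method was tested on simulated data. Libraries of a group correlated at 0.994 to 0.999, and none were identical.

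All measured members are named. From each pathway list, the rule names up to 4 genes per condition called in both clones with the largest mean difference. A few genes the rule would name are not reported here. Members and lists were chosen with earlier results of these data known. Alternatives covered pseudocount, filter, scaling, libraries in the fit, variance trend, replicate block and leaving out each library. Same-numbered libraries of a condition had correlations of deviations from -0.15 to 0.43 (median 0.05). Differently numbered ones ranged from -0.39 to 0.25 (median -0.04). The labels do not say that a number marks a pair, so the main model had no replicate block.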

Additional observations from a re-analysis of the deposited data

Results flagged for a closer look

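The mean difference of the GATA1s clones from FL changed between day 4 and expansion for 6 members, by a test of the change itself with limma. The change was -1.83 for IFI27, 1.11 for IFI6, 0.73 for ISG15, -0.56 for IFITM3, -1.54 for IRF7 and -1.23 for IRF9 (log2, day 4 minus expansion). The background was 65.1% of genes. For ISG15 the change was 1.66 ± 0.22 in 1D5 (adjusted p = 5.55e-06 with limma) and -0.21 ± 0.22 in 1KI9 (adjusted p = 0.417 with limma). IFI6 changed by 1.68 ± 0.26 in 1D5 (adjusted p = 3.32e-05 with limma) and 0.54 ± 0.26 in 1KI9 (0.0774). IFITM3 changed by -0.68 ± 0.26 in 1D5 (adjusted p = 0.0302 with limma) and -0.44 ± 0.26 in 1KI9 (0.14). So these 3 passed in 1D5 only, and IFI27, IRF7 and IRF9 passed in each clone.

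The 2 GATA1s clones differed from each other, again by limma, in 5 members in 1 condition and in IRF7 in both. Over all genes 19.2% were called at day 4 and 40.6% in expansion. At day 4, 1KI9 minus 1D5 was -1.67 for ISG15, -0.76 for IFI6 and -0.43 for IRF7. In expansion it was 0.61 for IFI27, 0.39 for IRF7 (not called with median-of-ratios scaling, adjusted p = 0.0686 with limma), -0.56 for IFITM2 and -0.66 for IFITM3. The IFI6 call at day 4 and the IFI27 and IFITM2 calls in expansion were also lost under some alternatives, as given above. Clone and any culture, passage or library difference between clones cannot be told apart.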

How the results depend on the processing

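The 3 members lower in both clones at day 4 and the IFITM2 and IFITM3 calls in both conditions held under every alternative run, as did IRF7 in expansion. The IFI6 call at day 4 did not, as given above. Fitting only the compared libraries gave 5 members called between 1KI9 and 1D5 at day 4 (1 higher, 4 lower) in place of 3. The all-gene count rose with it, from 2123 to 2776. Leaving out 1 library gave 5 to 6 members in both clones at day 4, 3 to 4 in expansion, 3 to 4 and 2 to 5 between the GATA1s clones at day 4 and in expansion, and 5 to 7 for the change between conditions. The count of 2 came without 1KI9 replicate 1 or 1D5 replicate 1 in expansion, against 4 with all libraries. For the other pathway genes these ranges were 41 to 49, 21 to 27, 20 to 27, 32 to 37 and 41 to 47. With all libraries these counts were 48, 26, 24, 37 and 45. The other pathway genes tested were 5 receptors, 6 JAK and STAT genes, 4 other regulatory factors and 6 negative regulators. The rest were 14 sensors and adaptors, 27 other interferon-induced genes and 5 antigen processing genes. The shares of all genes called in the same comparisons were 65.5%, 26.4%, 19.2%, 40.6% and 65.1%. With the replicate block, 6, 3, 4, 3 and 6 members were called in the same 5 comparisons. The all-gene counts with the block were 7305, 2972, 2194, 4553 and 7247. Whether the numbers pair the libraries is not settled, so calls lost or gained with the block are given without a reading. Of 18 libraries, 10 correlated best with their own number among the other clones of the same condition.

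The direction changed for 3 differences that passed in the main analysis. The IFITM3 change between conditions was 0.070 at a pseudocount of 0.1. With median-of-ratios scaling, JAK1 and PTPN2 at day 4 were at -0.13 and -0.14. The cause was not tested. That scaling moved the all-gene median at day 4 to -0.02, and equal totals to 0.55, from 0.29. Over all genes at day 4 it gave 2930 higher and 3469 lower in both clones, in place of 5670 and 1585. In expansion it gave 1627 and 1712 in place of 1927 and 992. Between the GATA1s clones, it gave 1149 and 1131 at day 4 in place of 1381 and 742, and 2121 and 2847 in expansion in place of 3690 and 791. For the change between conditions it gave 3416 and 3379 in place of 4996 and 2174. The all-gene count between the GATA1s clones at day 4 was 3186 with equal totals and 1282 without 1KI9 replicate 3, against 2123. The expansion count in both clones was 1610 when only the compared libraries were fitted, against 2919. Read depth is unknown, so no counting error can be set on low values such as IFITM3 in FL. Of the single-gene values under alternatives, 5520 kept direction and call, 126 lost the call, 64 gained it and these 3 changed direction. A further 48 changed sign without being called either way, among them ISG15 in 1KI9 against FL at day 4, given above.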
